A study of Rattus norvegicus with 8 samples.

Results

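The 8 genes described here, Osgin1, Srxn1, Nqo1, Hmox1, Txnrd1, Gclc, Gclm and Gsr, are transcripts that the transcription factor NRF2 is known to drive when cells meet oxidants or electrophiles. They were chosen by name, with earlier results of these data known, out of 14217 genes with a symbol on the array. Each is represented by the probe set that was brightest on average in the 6 single animals. All 8 were measured, by 12 probe sets that carry 1 gene symbol each, and the 4 probe sets that were not the brightest of their gene are given beside it. The samples were ovaries of female Sprague-Dawley rats that had carried a capsule releasing 5α-dihydrotestosterone (DHT), an androgen that aromatase cannot convert to estrogen, for 12 weeks, against ovaries of control (CTL) rats with an empty capsule, all collected at 15 weeks of age. RNA of 3 DHT and 3 CTL rats was read on single-animal arrays, and 1 further array per group carried the pooled RNA of the same 3 animals, which served only as a check. The series description names ovarian cortex as the tissue, and the methods note corpora lutea in most CTL ovaries and few or none in DHT-treated ones, so the groups differ in cell make-up as well as in hormone exposure. In whole-tissue RNA, fewer cells of a type and less RNA per cell cannot be told apart.

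NRF2, encoded by Nfe2l2, is made continuously and is normally marked for destruction by KEAP1, an adaptor of the CUL3 ubiquitin ligase. Oxidants and electrophiles modify cysteines of KEAP1, NRF2 then accumulates, pairs with a small MAF protein and binds antioxidant response elements (ARE) near its target genes, where the repressor BACH1 competes with it, best known at Hmox1. The targets repair oxidized peroxiredoxins (Srxn1), reduce thioredoxin (Txnrd1), make and recycle glutathione (Gclc, Gclm, Gsr), reduce quinones (Nqo1), break down heme (Hmox1) and restrain growth (Osgin1). In steroid-making cells of the ovary, cytochromes P450 that leak electrons are a known source of reactive oxygen.

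Promoter sequence was examined because these genes are grouped by their response to one factor. RefSeq (GRCr8) promoter windows, 250 bases before to 50 after the annotated start, matched 6 of the 8 members by symbol. Each window was searched on both strands for the ARE core written as TGACNNNGC or TGAGNNNGC and for the AP-1 site TGAGTCA, whose 7 letters can lie inside an ARE core. Matches were found in 3 members, Srxn1, Txnrd1 and Gclm. Over all 33469 promoter windows, 12.1% held TGACNNNGC, 17.2% held TGAGNNNGC, 4.63% held TGAGTCA and 29.9% held at least 1 of them. The stretches of 190 bases before to 10 after the start are shown for the called genes Osgin1 and Srxn1, and for Gclm and Txnrd1 (at the second of its annotated starts), which carry a match and were not called, with every match in capitals. They lie at chr19:64393711-64393910 (plus strand) for Osgin1, chr3:161064622-161064821 (plus strand) for Srxn1, chr2:213031945-213032144 (plus strand) for Gclm and chr7:22755895-22756094 (minus strand) for Txnrd1, and are written 5′ to 3′ along the gene.
Osgin1: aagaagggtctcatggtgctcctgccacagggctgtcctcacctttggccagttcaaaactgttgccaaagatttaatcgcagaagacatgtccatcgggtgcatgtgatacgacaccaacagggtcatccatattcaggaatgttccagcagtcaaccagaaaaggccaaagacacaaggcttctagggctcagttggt
Srxn1: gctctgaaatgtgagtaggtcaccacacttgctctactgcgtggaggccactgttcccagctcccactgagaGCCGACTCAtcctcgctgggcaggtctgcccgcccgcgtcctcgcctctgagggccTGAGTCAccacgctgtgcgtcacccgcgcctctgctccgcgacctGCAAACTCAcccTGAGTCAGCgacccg
Gclm: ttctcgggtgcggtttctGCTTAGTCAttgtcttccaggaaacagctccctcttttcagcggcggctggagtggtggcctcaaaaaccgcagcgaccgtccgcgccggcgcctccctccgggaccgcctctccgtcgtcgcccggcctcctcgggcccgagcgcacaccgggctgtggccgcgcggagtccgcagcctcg
Txnrd1: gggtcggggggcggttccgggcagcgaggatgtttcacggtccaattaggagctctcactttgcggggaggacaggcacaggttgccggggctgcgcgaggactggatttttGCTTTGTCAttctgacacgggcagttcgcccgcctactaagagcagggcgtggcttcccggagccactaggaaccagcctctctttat
Srxn1 carried 3 matches to TGAGNNNGC, at -118 to -110 and -17 to -9 on the reverse strand and at -5 to 4 on the forward strand relative to the start, and the last of them also held TGAGTCA, as did a separate stretch at -62 to -56. Gclm had 1 match to TGACNNNGC on the reverse strand at -172 to -164, and Txnrd1 had 1 on the reverse strand at -78 to -70. These letters were not in the windows of Osgin1, Nqo1, Gclc or the other start of Txnrd1, and a match or its absence in so short a window says nothing about binding.

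Over the arrays as a whole, the median log2 value lay at 3.25 on CTL replicate 3 and at 2.97 to 3.03 on the other arrays. Background was set on each array from 41 probe sets of smell, pheromone and taste receptors, at their 95th percentile, and lay at 2.62 to 2.71, or 3.07 on CTL replicate 3. Gapdh has control probe sets at both ends of its transcript, and the excess of the 3′ signal over the 5′ signal, which grows as the labelled RNA gets shorter, was on the log2 scale 2.99 to 3.98 on the DHT replicates and 0.39, 0.62 and 3.49 on CTL replicates 1, 2 and 3. On the pooled arrays it was 3.72 for DHT and 2.62 for CTL, so the CTL pool lay nearer to CTL replicate 3 than to CTL replicates 1 and 2. The same difference for beta-actin was 6.48 to 7.31 on the DHT replicates and 4.56, 5.30 and 6.83 on CTL replicates 1, 2 and 3. CTL replicate 3 correlated with CTL replicate 1 at r = 0.866 and with DHT replicate 1 at r = 0.907 across probe sets. CTL replicates 1 and 2 correlated with DHT replicate 1 at r = 0.946 and 0.949. CTL replicate 3 was thus less like DHT replicate 1 than the other CTL animals were, and values without it are given beside each member and each gene list. The groups were compared by limma over 31042 probe sets, and calls required at least a 2-fold change, an unadjusted p no higher than 0.01 and an adjusted p no higher than 0.1.

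Of the 8 stress targets, 2 fell in DHT-treated ovaries, Osgin1 and Srxn1, and none rose, where 0.351% of all probe sets were called lower and 0.68% higher. Because the 8 were chosen with earlier results of these data known, shares over all probe sets describe the array and test nothing about the set. The other 6 did not pass the test, and 7 of the 8 had a mean below that of CTL. On 5 genes, Osgin1, Srxn1, Nqo1, Txnrd1 and Gsr, all DHT values were lower than all CTL values, against 6.85% of all probe sets, and on none did every DHT animal lie above every CTL animal, against 10.6%. For Nqo1, Txnrd1 and Gsr the nearest DHT and CTL animals differed by at most 0.103 on the log2 scale, whereas for Osgin1 and Srxn1 every CTL animal was at least 2-fold above every DHT animal, which held for 0.496% of all probe sets. The median log2 fold change of the 8 genes was -0.79, beside -0.03 over all probe sets.

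**Figure D1:**
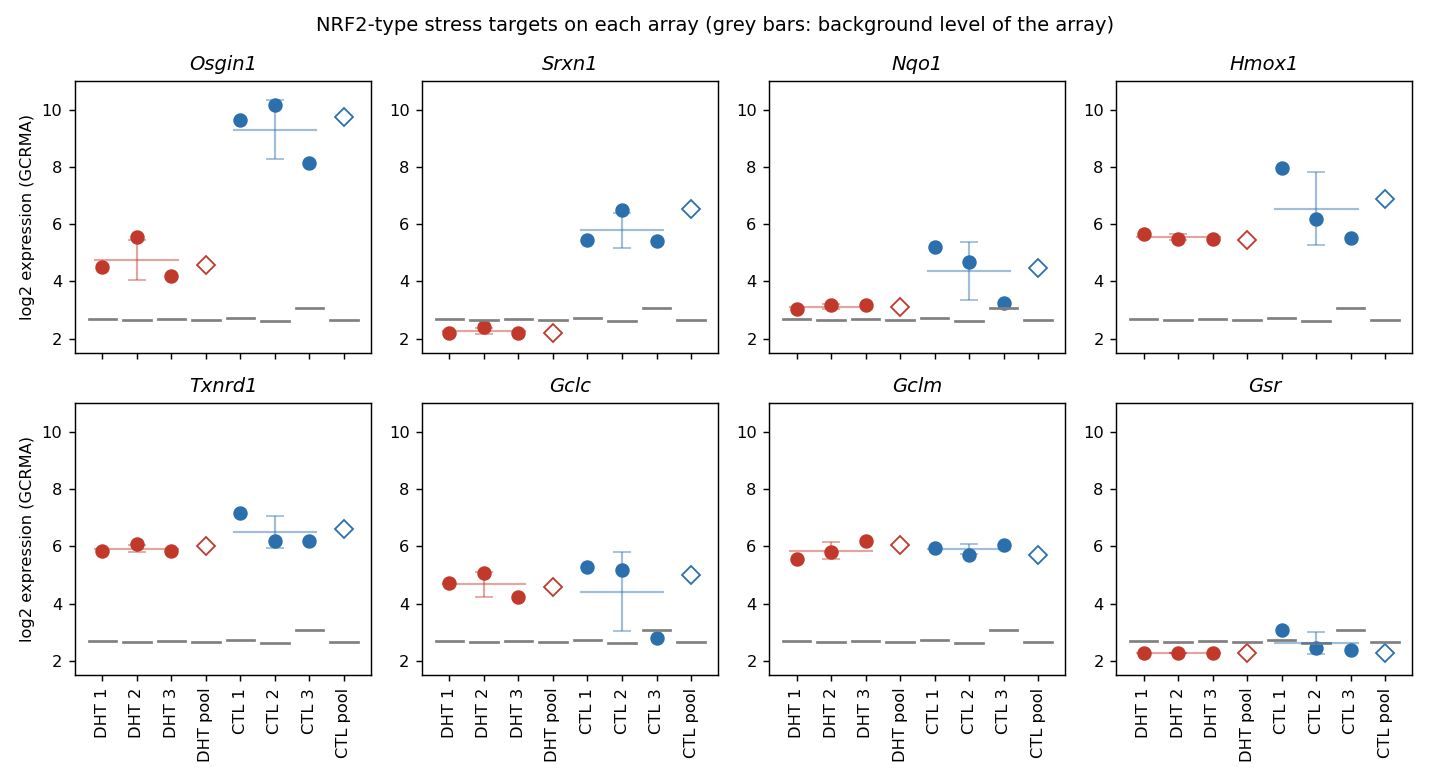
Log2 expression of the 8 stress targets on each array, DHT animals and pool in red, CTL animals and pool in blue; filled circles are single animals, open diamonds pooled RNA, horizontal lines with error bars the mean and SD of 3 animals, and grey bars the background level of each array. Osgin1 lies between 4.19 and 5.55 in DHT animals and between 8.14 and 10.15 in CTL animals, and the DHT values of Srxn1 lie under the background bars.

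Osgin1 encodes a growth inhibitor that is induced by oxidative stress. Its log2 expression was 4.51, 5.55 and 4.19 in DHT replicates 1, 2 and 3, against 9.62, 10.15 and 8.14 in CTL replicates 1, 2 and 3. The highest DHT animal lay 2.59 below the lowest CTL animal, a 6.01-fold gap with no overlap. DHT-treated ovaries averaged 4.75 ± 0.71 (SD, n = 3) and those of CTL rats 9.30 ± 1.04 (SD, n = 3), which gave a log2 fold change of -4.55 (standard error 0.64, limma adjusted p = 0.0708) and a 23.4-fold lower level. By size this was the 11th lowest log2 fold change of the 31042 probe sets, and by p it stood at place 316. The pooled arrays gave 4.57 for DHT and 9.74 for CTL, a log2 difference of -5.17.

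Srxn1 encodes sulfiredoxin, which reduces peroxiredoxins that have been overoxidized by peroxide. Its brightest probe set read 2.2, 2.40 and 2.21 in DHT replicates 1 to 3, all at or below the background of those arrays, against 5.43, 6.50 and 5.40 in CTL replicates 1 to 3, all above it. The transcript was thus at background in the DHT animals and above it in every CTL animal. Set against the background of the DHT arrays, expression was at least 8.63-fold lower in DHT-treated ovaries than the CTL mean (limma adjusted p = 0.0508). The fitted log2 difference of -3.51 (standard error 0.32) uses the DHT readings at background, so its size depends on that floor. The pooled arrays read 2.2 for DHT and 6.53 for CTL. The other probe sets of Srxn1 showed nothing of this, since both were at or below background on all 8 arrays, with log2 fold changes of -0.05 and -0.13.

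As for every probe set called on the array, the calls of Osgin1 and Srxn1 needed all 3 DHT animals. Without any single DHT replicate no probe set on the array was called, and the adjusted p by limma was 0.22 to 0.297 for Osgin1 and 0.194 to 0.265 for Srxn1. The log2 fold change then ran from -4.95 to -4.27 for Osgin1 and from -3.57 to -3.47 for Srxn1. Without CTL replicate 1 or 2 Srxn1 remained called and Osgin1 did not (adjusted p = 0.161 without CTL replicate 1 and 0.15 without CTL replicate 2).

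CTL replicate 3, whose Gapdh difference of 3.49 lay inside the DHT range, stood differently for different members. It was also the most unlike array, with a background of 3.07 and a limma array quality weight of 0.028, beside 1.07 to 7.76 for the remaining arrays. Nearness to it or distance from it therefore decides nothing about a member. On that array Osgin1 read 8.14 and Srxn1 5.40, so DHT-treated ovaries were 10.4-fold lower for Osgin1 and, with the DHT readings at background, at least 6.65-fold lower for Srxn1, from a single CTL animal and without a test. Nqo1, Hmox1, Txnrd1, Gclm and Gsr read within 0.25 of the DHT mean on the same array, and for Gclc the DHT mean was 1.86 above it. With the Gapdh difference as a covariate in limma, Osgin1 and Srxn1 were called lower (adjusted p = 0.0157 each) and Gclc was called higher, where 3.5% of all probe sets were called lower and 8.57% higher. The log2 fold change of Osgin1 was then -3.26 and that of Gclc 1.89, while Nqo1 had -0.18 (adjusted p = 0.628) and Hmox1 0.03 (adjusted p = 0.978). The Gapdh difference was 0.39 and 0.62 on CTL replicates 1 and 2, so CTL replicate 3 alone of the CTL animals shared the DHT range. The fit with the covariate therefore leans on that 1 animal and adds little to the comparison with it. Without CTL replicate 3, 3 members were called lower, Osgin1, Srxn1 and Nqo1, and none higher, where 3.12% of all probe sets were called lower and 2.11% higher. The Gapdh difference of each remaining CTL animal was then below that of every DHT animal. Treatment and that difference therefore cannot be told apart in any value given here or below without CTL replicate 3.

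**Figure D2:**
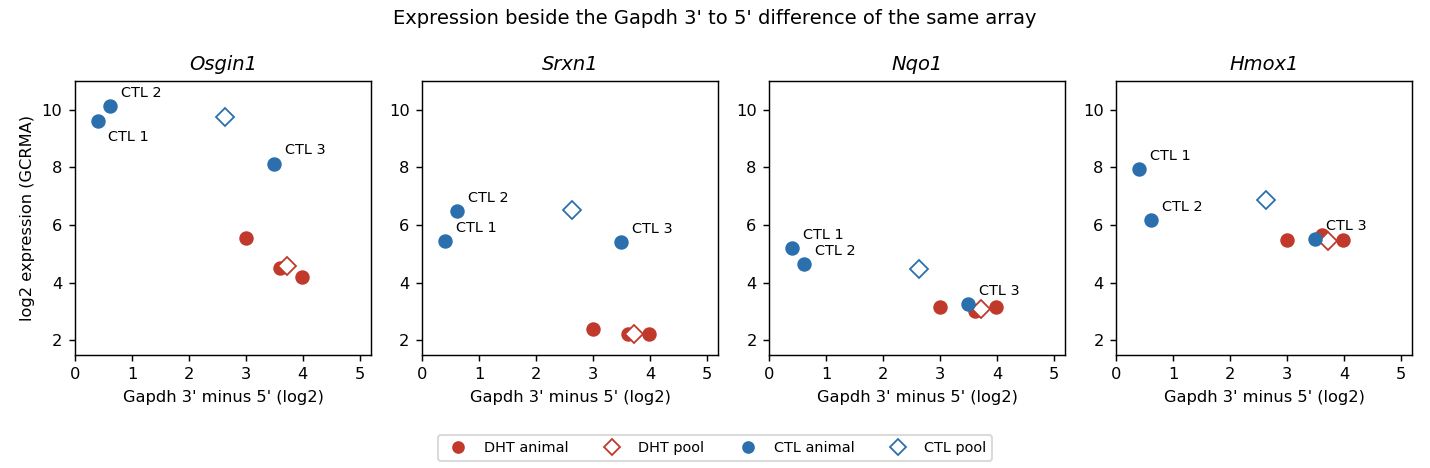
Log2 expression of 4 of the stress targets (vertical axis) against the log2 difference between the 3′ and 5′ probe sets of Gapdh on the same array (horizontal axis), DHT in red and CTL in blue, with single animals as filled circles and pooled RNA as open diamonds. At a Gapdh difference of 3.49, CTL replicate 3 stands apart from the DHT animals for Osgin1 and Srxn1 and among or beside them for Nqo1 and Hmox1.

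Nqo1 encodes a quinone reductase that is widely used as a readout of NRF2 activity. It had 3.03, 3.17 and 3.16 in DHT replicates 1 to 3, against 5.19, 4.66 and 3.25 in CTL replicates 1 to 3. CTL replicates 1 and 2 were clearly above the DHT animals, and CTL replicate 3 exceeded the highest of them by only 0.076. The log2 fold change was -1.24 (standard error 0.51, limma adjusted p = 0.441), with a 95% confidence interval of -2.55 to 0.056. Without CTL replicate 3 it was -1.80 (standard error 0.18, adjusted p = 0.0278) and the gene was called lower.

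Hmox1, the inducible heme oxygenase, releases iron, carbon monoxide and biliverdin from heme. It had 5.66, 5.49 and 5.49 in DHT replicates 1 to 3, against 7.96, 6.17 and 5.51 in CTL replicates 1 to 3. The 3 DHT animals differed by 0.169, the 3 CTL animals by 2.45, and CTL replicate 3 fell inside the DHT range. The log2 fold change of -0.997 (standard error 0.65, 95% confidence interval -2.64 to 0.64) did not pass the test (limma adjusted p = 0.713), nor did that of -1.51 without CTL replicate 3 (adjusted p = 0.232). The pooled arrays read 5.44 for DHT and 6.88 for CTL.

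Txnrd1 encodes the cytosolic thioredoxin reductase. Its brightest probe set had 5.85, 6.07 and 5.85 in DHT replicates 1 to 3, against 7.15, 6.18 and 6.17 in CTL replicates 1 to 3, so CTL replicate 1 stood above the other 5 animals, which lay close together. The log2 fold change was -0.58 (standard error 0.30, limma adjusted p = 0.562, 95% confidence interval -1.33 to 0.18), and -0.74 without CTL replicate 3 (adjusted p = 0.275). A dimmer probe set of the gene was at or below background on all single-animal arrays but CTL replicate 1, where it read 4.20.

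Gclc and Gclm encode the catalytic and the modifier subunit of glutamate-cysteine ligase, which makes the first intermediate of glutathione. Gclc had 4.71, 5.08 and 4.22 in DHT replicates 1 to 3, against 5.28, 5.17 and 2.82 in CTL replicates 1 to 3. CTL replicates 1 and 2 were above every DHT animal and CTL replicate 3, at or below its background, was below every one, so the groups overlapped. The log2 fold change was 0.25 (limma adjusted p = 0.906) over all animals and -0.55 (adjusted p = 0.324) without CTL replicate 3, and with the Gapdh covariate it was 1.89 (adjusted p = 0.0153), so no direction was settled. A dimmer probe set of Gclc was at background in the DHT animals, with 3.24, 3.11 and 2.45 in the CTL animals (log2 fold change -0.56, adjusted p = 0.422).

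Gclm had 5.57, 5.80 and 6.18 in DHT replicates 1 to 3, against 5.96, 5.69 and 6.04 in CTL replicates 1 to 3. The groups overlapped fully and CTL replicate 3 lay with the others, unlike for Gclc. The log2 fold change was -0.05 (standard error 0.19, limma adjusted p = 0.92), and its 95% confidence interval of -0.52 to 0.42 leaves room for changes of less than 2-fold in either direction. Gsr, which regenerates reduced glutathione, read 2.29, 2.28 and 2.29 in DHT replicates 1 to 3, against 3.09, 2.45 and 2.37 in CTL replicates 1 to 3, and was above background on CTL replicate 1 alone of the 8 arrays. Its log2 fold change of -0.35 (adjusted p = 0.655), or -0.48 without CTL replicate 3 (adjusted p = 0.27), is therefore mostly a difference between background readings.

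**Figure D3:**
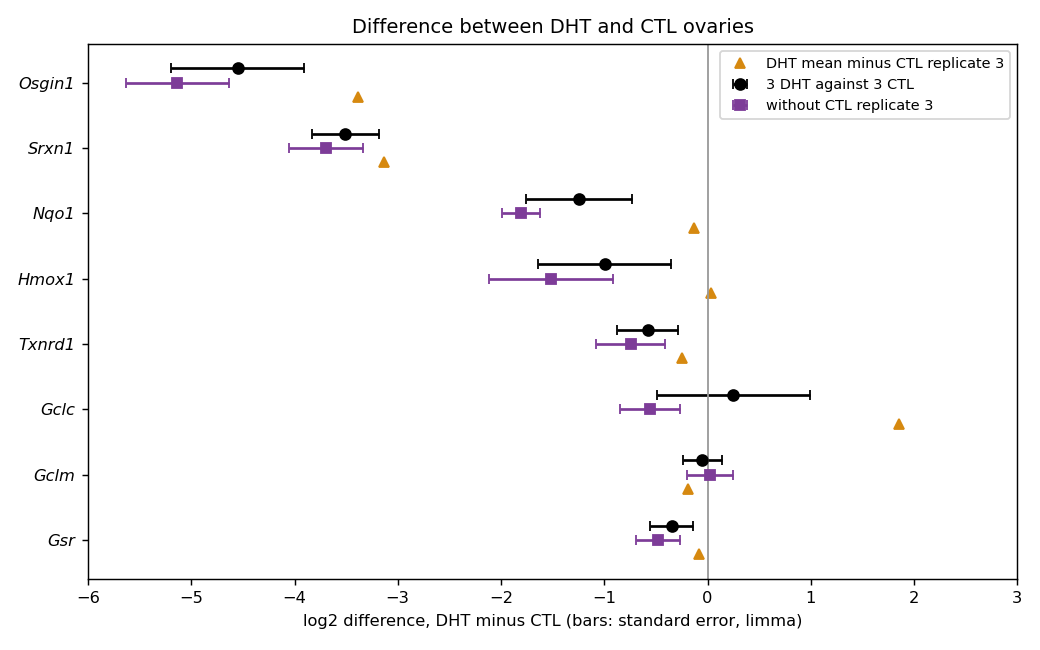
Log2 difference between DHT and CTL ovaries for the 8 stress targets, over 3 DHT and 3 CTL animals (black circles), without CTL replicate 3 (purple squares) and as the DHT mean minus CTL replicate 3 alone (orange triangles, no test); bars are standard errors from limma. The 3 values lie between -5.13 and -3.39 for Osgin1 and between -3.70 and -3.13 for Srxn1, whose DHT readings were at background, while those of Nqo1 run from -1.80 to -0.13 and those of Gclc from -0.55 to 1.86.

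CTL replicate 1 carried the highest value of the 6 animals for 5 of the 8 members, Nqo1, Hmox1, Txnrd1, Gclc and Gsr, where this was so for 12.2% of all probe sets. For Hmox1 it exceeded CTL replicate 2 by 1.80 and for Txnrd1 by 0.97 on the log2 scale, whereas for Osgin1 and Srxn1 CTL replicate 2 was the highest. On the same array 11 of 12 measured macrophage markers had their highest value. The log2 of the summed macrophage level was 9.84 to 10.3 in DHT animals and 11.6, 11.1 and 10.2 in CTL replicates 1, 2 and 3, and none of the 12 was near background on all 8 arrays. Ctss, a lysosomal protease, was the 1 marker called lower (log2 fold change -1.16, limma adjusted p = 0.0994), where 0.351% of all probe sets were. Without CTL replicate 3 the called markers numbered 5, all lower, beside 3.12% of all probe sets. Macrophages are known to express Hmox1, and the part of these cells in the values of the members was not tested.

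None of the luteal markers was called by limma over the 6 animals. All 8 measured luteal markers had a lower mean in DHT-treated ovaries, with a median log2 fold change of -3.05. For 7 of them all DHT values were lower than all CTL values, beside 6.85% of all probe sets. Without CTL replicate 3 the median was -3.58 and 1 marker was called lower (beside 3.12% of all probe sets), A2m, a protease inhibitor (limma adjusted p = 0.056). The log2 of their summed level was 12.1, 12.4 and 10.3 in DHT replicates 1 to 3, against 14.0, 15.0 and 13.5 in CTL replicates 1 to 3. The lowest CTL value thus lay above the highest DHT value, as for Osgin1 and Srxn1. The marker lists were chosen with earlier results of these data known, so the shares beside their counts are a description only. Of the luteal list, the paper itself reported Star, Cyp11a1, Rln1 and A2m as repressed. Single markers of other cells differed too. Of 5 measured endothelial markers 3 had all DHT values below all CTL values (beside 6.85% of all probe sets), with a median of -0.74. Inhba of granulosa cells (1.45, limma adjusted p = 0.0692), Insl3 of theca cells (3.11, adjusted p = 0.0575) and Zp2 of oocytes (1.55, adjusted p = 0.087) were called higher. Each was the only 1 called, of 6 granulosa, 4 theca and 5 oocyte markers measured (beside 0.68% of all probe sets). In these lists 1, 1 and 3 markers had a lower mean, among them Cyp19a1 of granulosa cells at -2.91, and the medians were 0.59, 1.84 and -0.004. The part of any of these cells in the values of Osgin1 and Srxn1 was not tested.

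Osgin1 and Srxn1 resembled each other over the 6 animals, with Pearson r = 0.975, a description of 6 points that fall into 2 groups. The genes most like Osgin1 among 13764 probe sets above background on at least 3 of the 6 arrays were Dusp22, a phosphatase (r = 0.995), Abcb1a, a drug efflux pump (r = 0.993), and Tns4, a tensin of focal adhesions (r = 0.992), and 132 probe sets exceeded r = 0.95. Dusp22 had a log2 fold change of -1.32 (limma adjusted p = 0.0827) and Tns4 of -1.82 (adjusted p = 0.0548), and both were called, while Abcb1a, at -2.24 (adjusted p = 0.104), was not. Most like Srxn1 were Kifc3, a kinesin (r = 0.997), Stard4, a cholesterol carrier (r = 0.997), and Nap1l5, a nucleosome assembly protein (r = 0.995), all called lower, with 108 probe sets above r = 0.95. Kifc3 had a log2 fold change of -3.08, Stard4 of -2.68 and Nap1l5 of -2.04. These genes were picked for following a called member over the same arrays, so their lower values and calls largely follow from that choice. They test nothing about the members. Among all probe sets 0.351% were called lower.

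The array of pooled RNA can be set against the mean of the 3 animals it holds, taken on the linear scale. For Nqo1, Hmox1 and Txnrd1 the pooled CTL array differed from that mean by -0.10, -0.06 and 0.02 on the log2 scale. For Srxn1 it was 0.66 above the mean of its animals and for Gsr 0.38 below it, at background. The pooled DHT array lay within 0.301 of the mean of its animals for the 8 genes. The difference between the pooled arrays had the same sign as that between the animals for Osgin1, Srxn1, Nqo1, Hmox1 and Txnrd1, and the opposite sign for Gclc at -0.42 and Gclm at 0.37. Gsr read at background on both pooled arrays.

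Around the members, 8 lists of genes of the NRF2 pathway and its neighbours, 77 genes in all, held 72 that were measured. These lists too were chosen with earlier results of these data known, so the shares beside their counts are a description only. None of the 72 was called lower or higher by limma over the 6 animals. Their median log2 fold change was -0.23, 46 had a lower mean in DHT-treated ovaries, for 11 (15.3%, beside 6.85% of all probe sets) all DHT values were lower than all CTL values, and for 6 (8.33%, beside 10.6%) all were higher. Without CTL replicate 3, 16 (22.2%, beside 3.12%) were called lower and none higher (beside 2.11%), with a median of -0.39. As for the members, treatment and the Gapdh difference cannot be told apart in those calls. With the pooled arrays as replicate 4, 6 (8.33%, beside 1.39%) were called lower and 2 (2.78%, beside 1.72%) higher.

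Nfe2l2 itself, picked here with Keap1 and Bach1 after the values had been seen, had 8.36, 8.68 and 8.31 in DHT replicates 1 to 3, against 8.73, 8.73 and 5.65 in CTL replicates 1 to 3. CTL replicate 3 stood alone. Over all animals Nfe2l2 had a log2 fold change of 0.74 (limma adjusted p = 0.896) and of -0.28 (adjusted p = 0.288) without that array, so no direction was settled. Keap1 had 4.67 to 4.84 in DHT animals and 3.95 to 4.86 in CTL animals, with a log2 fold change of 0.25 (adjusted p = 0.896), or -0.03 without CTL replicate 3 (adjusted p = 0.815), and Bach1 was at or below background on all 8 arrays. Among regulators and partners, 13 of 13 measured, Nfe2l1, a related factor that controls proteasome genes, had 6.86, 7.27 and 6.45 in DHT replicates 1 to 3, against 8.98, 8.64 and 7.44 in CTL replicates 1 to 3 (log2 fold change -1.49, adjusted p = 0.285), and was called without CTL replicate 3 (adjusted p = 0.0477). Cul3, the scaffold of the KEAP1 ligase, had 0.49 (adjusted p = 0.373) with every DHT animal above every CTL animal, and 0.30 without CTL replicate 3. The median of the list was 0.10 over all animals and -0.23 without CTL replicate 3, where 3 of its genes were called lower (beside 3.12% of all probe sets).

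Glutathione supply and transport, 10 of 10 measured, had a median log2 fold change of -0.14, or -0.28 without CTL replicate 3 with none called. In 5 of the 10 the DHT animals lay below all CTL animals, beside 6.85% of all probe sets. Gss, which completes glutathione, had -0.67 (limma adjusted p = 0.24) and Abcc4, an exporter of organic anions, had -1.50 (adjusted p = 0.156). In the thioredoxin and peroxiredoxin system, 9 of 10 measured, the median was -1.13, Glrx, a glutaredoxin, had -1.18 (adjusted p = 0.514), and Txnip, which binds and inhibits thioredoxin, had 1.62 (adjusted p = 0.478), or 0.80 without CTL replicate 3, which read 8.24 beside 10.65 and 10.74 on CTL replicates 1 and 2. That list had a median of -1.63 without CTL replicate 3, where 4 of its genes were called lower (beside 3.12% of all probe sets). The DHT mean was, however, 0.48 above CTL replicate 3 at the median gene. Of the NADPH-producing enzymes, 5 of 6 measured, all had a lower mean, with a median of -0.86. Without CTL replicate 3 that median was -1.54 with 3 called lower (beside 3.12% of all probe sets). Against CTL replicate 3 alone the DHT mean was 0.50 higher at the median gene. Me1, the cytosolic malic enzyme, had -2.01 (adjusted p = 0.121) and Idh1, the cytosolic isocitrate dehydrogenase, had -1.95 (adjusted p = 0.132; called without CTL replicate 3, adjusted p = 0.0677), and neither overlapped between the groups.

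Heme and iron handling, 7 of 9 measured, had a median log2 fold change of -0.33. Without CTL replicate 3 it was -0.43 with 3 called lower, beside 3.12% of all probe sets. Blvra, which turns the biliverdin made by heme oxygenase into bilirubin, had -0.98 (limma adjusted p = 0.471), but 5.27 and 5.42 on CTL replicates 1 and 2 against 3.88 on CTL replicate 3, and was called lower without that array (adjusted p = 0.00906). Slc48a1, a heme transporter, had -0.33 (adjusted p = 0.337). Quinone and carbonyl reduction, 9 of 10 measured, had a median of -0.01, or 0.03 without CTL replicate 3 with none called. Nqo2, the relative of Nqo1, had 0.22 (adjusted p = 0.365) and Ptgr1, a reductase of prostaglandins and other unsaturated carbonyls, had 1.33 (adjusted p = 0.297), each with every DHT animal above every CTL animal. Peroxide and superoxide removal, 9 of 9 measured, had a median of -0.06, or -0.11 without CTL replicate 3 with 3 called lower (beside 3.12% of all probe sets). Gpx1, a glutathione peroxidase, had -1.19 (limma adjusted p = 0.391, and 0.0245 without CTL replicate 3, where it was called). Gpx7, a peroxidase of the endoplasmic reticulum, had 1.27 (adjusted p = 0.302). Among 10 genes of other stress responses the median was -0.44, or -0.60 without CTL replicate 3 with none called, and Asns, a target of the amino acid response, had -1.23 (adjusted p = 0.299), while Trib3, a pseudokinase of the same response, had -0.64 (adjusted p = 0.47), or -0.34 without CTL replicate 3.

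**Figure D4:**
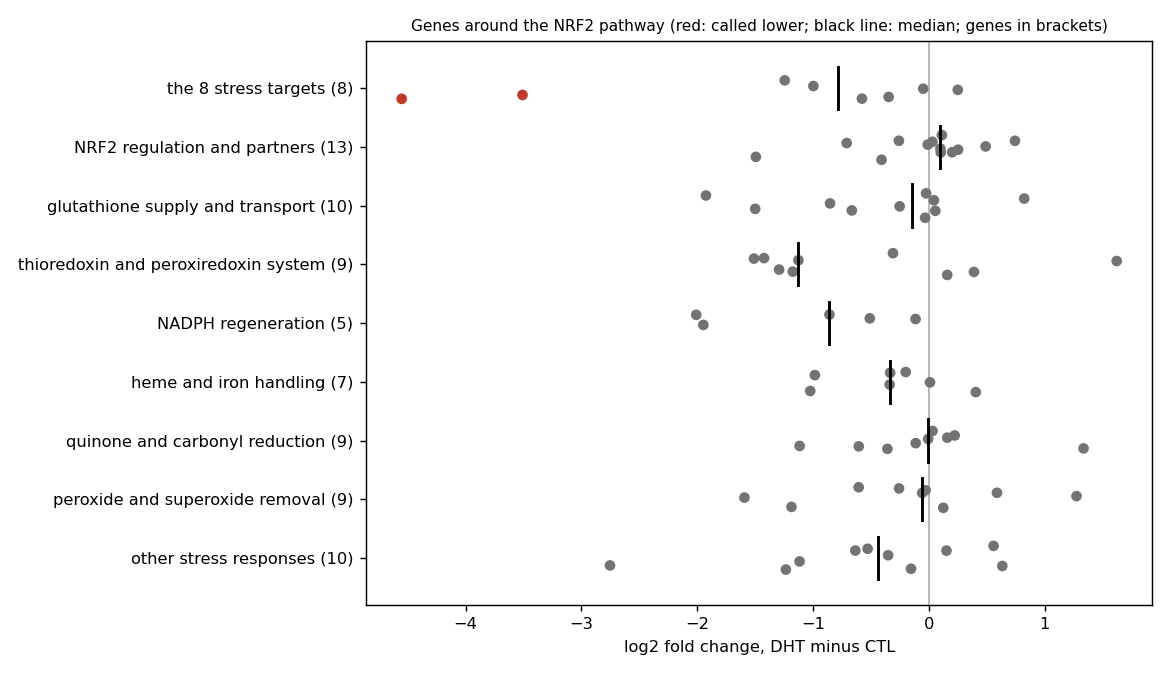
Log2 fold change of the 8 stress targets (top row) and of the genes of 8 lists around the NRF2 pathway, DHT minus CTL over 3 animals each; each point is a gene, red where called lower, and black lines are medians. Osgin1 at -4.55 and Srxn1 at -3.51 are the red points, and none of the 72 other genes was called.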

How the data were processed

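Ovarian RNA of 3 DHT and 3 CTL rats, and 1 pool per group, was hybridized to Affymetrix rat genome arrays. The deposited log2 values, 1 per probe set and array, are those the authors obtained with GCRMA, which corrects background by probe sequence, normalizes and summarizes. Of the probe sets, 57 Affymetrix controls were left out, and of the remaining 31042, 20826 carry 1 gene symbol, 436 several and 9780 none in the array annotation. Symbols were matched by Entrez gene to GRCr8.

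DHT was compared with CTL with limma 3.58.1 (lmFit, eBayes; R 4.3.3), the tool of the methods, with Benjamini-Hochberg adjustment over all 31042 probe sets. Every adjusted p is from limma. The pooled arrays were left out of the test because their RNA came from those animals. The members and lists were chosen with earlier results of these data known. The genes named are the 8 members, in each pathway list every gene called and the 2 with the smallest p, and the 3 most correlated with each called member. Nfe2l2, Keap1, Bach1 and the cell type markers named were picked after their values were seen. The procedure was checked on simulated data, with noise of the same spread on every array for a given probe set. Of 50 changed probe sets each, 32, 45, 39 and 48 were recovered at log2 changes of 1.5, 2, 3 and 4. Another 12 of the 31042 probe sets were called falsely. No simulated array was unlike the others, as CTL replicate 3 was here. Setting DHT against CTL replicate 3 alone was chosen after seeing the data. The number of arrays limits the precision, and the smallest exact permutation p of a 3 by 3 design is 0.1.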

Additional observations from a re-analysis of the deposited data

How the results depend on the processing

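Between all 6 animals 320 probe sets were called, 109 of them lower. The counts were 966 and 433 with the pooled arrays as replicate 4, 1874 and 1144 with array quality weights, 3747 and 1088 with the Gapdh difference as covariate, 61 and 40 with a mean-variance trend, and 29 and 10 at an adjusted p of 0.05 with no fold threshold. The total was 173 after quantile normalization, and 176 were lower with dim probe sets left out. Leaving out 1 animal gave 0 to 1622 probe sets, of them 0 to 968 lower. Of the 8 members, 2 were called lower over all animals, 0 to 3 without 1 animal and 0 at an adjusted p of 0.05 (Srxn1 0.0508, Osgin1 0.0708). None was called higher except 1, Gclc, with the Gapdh covariate. Of the 72 other pathway genes none was called; 6 were lower and 2 higher with the pooled arrays, 22 lower with array weights, 2 lower with dim probe sets left out, 1 lower after quantile normalization or over the mean of a gene's probe sets, 2 lower and 11 higher with the covariate, and 0 to 16 lower without 1 animal. The array weights were 0.028 for CTL replicate 3 and 1.07 to 7.76 for the remaining arrays.

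The sign turned for genes that were not called: Hmox1 had 0.03 with the covariate; Gclc had -0.47 with array weights, -0.16 over the mean of its probe sets and -0.55 to 0.68 without 1 animal, negative without CTL replicate 3; Gclm had 0.056 with the pooled arrays, 0.0064 after median scaling and -0.21 to 0.090 without 1 animal, positive without DHT replicate 1 (0.090) or CTL replicate 3 (0.023). The cause was not tested.

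The replicate numbers were not taken as pairs in the main test. The deviations of same-numbered animals correlated at -0.07, 0.44 and 0.34, which with 3 animals per group cannot settle whether they were paired. With the replicate number as a block, 0 probe sets, 0 of them lower, and 0 members were called, with an adjusted p of 0.17 for Osgin1 and for Srxn1. The number of arrays and, for Srxn1 and Gsr, the nearness to background limit what can be shown.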
